A study of Mus musculus with 7 samples.

Results

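Perfect estrogen response elements that lie in repeats were examined in chromatin immunoprecipitation sequencing (ChIP-seq) of estrogen receptor β (ERβ) from mouse ovary. An element was counted as perfect when both of its inverted 5-base arms matched the consensus without a mismatch around a spacer of 3 bases, GGTCANNNTGACC, where N stands for any base. On chromosomes 1 to 19 and X of the mouse assembly GRCm38 (mm10), 2357 perfect elements were found, and 231 of them (9.8%) lay with all 13 bases in soft-masked sequence, which the assembly prints in lower case to mark repeated or simple sequence. These 231 elements are the subject here. Another 1934 lay wholly outside soft-masked sequence and 192 crossed its edge. Membership was decided by the genome sequence alone, so the ChIP signal had no part in it.

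Signal of 5 libraries was available: 3 ERβ ChIP libraries and 2 inputs, which are sheared chromatin sequenced without the antibody step. All 5 came from fresh ovaries of female C57BL/6J mice that express ERβ from its own gene, and the ChIP used the monoclonal antibody PPZ0506. Per the methods of the study, ovaries of several mice were pooled for each replicate and the mice were not staged in the estrous cycle. The methods give the age of the mice used for ChIP as a range from a few weeks to a few months. No age per library is given in the sources used here. A value is thus an average over cell types, cycle stages and possibly ages, and no cell type can be told apart. The 2 ERβ ChIP samples from ERβ knockout ovaries were not analysed here, so signal that does not depend on ERβ was not measured. Genome means of the normalised signal were 0.362, 0.365 and 0.366 in ChIP replicates 1, 2 and 3, and 0.370 and 0.367 in Input replicates 1 and 2. The study reports the aligned reads of its ChIP samples, but depth could not be read from these tracks. The number of reads behind a value is therefore not known here, and the spread between libraries alone sets its precision.

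ERβ is a nuclear receptor that binds DNA as a dimer, each partner contacting one arm of the palindrome, and it is the main estrogen receptor of granulosa cells, the somatic cells around the oocyte. A base outside each arm, A before and T after, completes the extended element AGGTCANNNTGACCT. Copies of mobile elements carry the same letters to many places in a genome, and copies that still resemble each other attract reads that cannot be placed at a single position.

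The elements fell into families by the sequence around them. Elements were joined when their 200 bp aligned over at least 60 bases at 75% identity or more with the palindromes on each other, and the joined groups with at least 10 elements in soft-masked sequence were named A to E by size. They held 88, 37, 20, 12 and 11 elements, 168 in all. Another 23 elements belonged to 5 smaller groups and 40 to none. No annotation of repeat families was used here, so the groups carry letters rather than names. Read on one strand or the other, the spacer was GCA in all 88 elements of group A, GCC in 21 of 37 of group B, CCC in 19 of 20 of group C, ACT in all 12 of group D and CCA in 8 of 11 of group E.

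The sequences below were chosen to show what the groups look like and which elements carried most of the signal. All are from GRCm38, and capitals mark the 13 bases of the element. A gene in a line is the one with the nearest coding start, at whatever distance. The first line is the most frequent base at each position over 86 elements of group A, turned so that the spacer reads GCA. On average 80.9% of these elements shared that base within 30 bases of the palindrome.
Group A, most frequent bases: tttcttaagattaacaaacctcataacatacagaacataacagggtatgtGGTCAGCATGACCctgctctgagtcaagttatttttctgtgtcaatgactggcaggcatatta
Group A nearest Leo1, chr9:75455220-75455282, plus strand: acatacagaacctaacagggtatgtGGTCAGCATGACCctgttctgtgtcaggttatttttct
Group A nearest Ubash3b, chr9:41240125-41240187, plus strand: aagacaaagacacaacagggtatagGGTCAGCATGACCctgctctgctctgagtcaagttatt
Group A nearest Chkb, chr15:89436080-89436142, plus strand: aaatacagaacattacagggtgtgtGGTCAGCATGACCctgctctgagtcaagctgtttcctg
Group B nearest Map4, chr9:110073709-110073771, plus strand: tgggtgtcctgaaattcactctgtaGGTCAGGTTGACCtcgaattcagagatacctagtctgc
Group B nearest Rnf219, chr14:104529288-104529350, plus strand: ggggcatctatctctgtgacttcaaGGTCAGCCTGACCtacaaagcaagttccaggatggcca
Group B nearest Sept6, chrX:36968051-36968113, plus strand: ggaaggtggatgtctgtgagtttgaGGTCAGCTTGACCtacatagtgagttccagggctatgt
Group C nearest Gm17332, chr11:31138097-31138159, plus strand: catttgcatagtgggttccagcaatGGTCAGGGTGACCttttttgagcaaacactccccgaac
Group D nearest Pcdh7, chr5:58954718-58954780, plus strand: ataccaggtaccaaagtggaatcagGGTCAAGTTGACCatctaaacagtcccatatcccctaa
Group E nearest Htr2b, chr1:86092161-86092223, plus strand: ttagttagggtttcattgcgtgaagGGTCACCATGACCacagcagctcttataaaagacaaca
No group, nearest Cog6, chr3:52876543-52876605, plus strand: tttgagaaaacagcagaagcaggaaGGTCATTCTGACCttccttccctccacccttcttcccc
No group, nearest Chst11, chr10:83011012-83011074, plus strand: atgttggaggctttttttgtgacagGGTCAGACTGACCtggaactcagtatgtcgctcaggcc
No group, nearest Hacd3, chr9:64991788-64991850, plus strand: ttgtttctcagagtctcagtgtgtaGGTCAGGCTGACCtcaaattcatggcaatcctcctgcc

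The first question was how many of the 231 elements had ERβ ChIP signal above input. The fold was the mean signal of a ChIP library in the 200 bp centred on the element over the mean of both inputs, and an input value under its genome mean of 0.368 was raised to that mean. In at least 2 of 3 ChIP libraries, 16 elements (6.93%) exceeded 4-fold, and 12 did so in all 3. Among windows of 200 bp taken every 1 kb of the genome, 0.0424% passed the same criterion, and among those with more than 50% of their bases soft-masked 0.00989% did. The first ChIP library had 6.06% of the elements over 4-fold, the second 7.79% and the third 6.49% (SD 0.901 percentage points, n = 3). With an input in place of the ChIP library and the other input as reference, no element exceeded 4-fold, the highest ratios being 2.22 for Input replicate 1 and 2.15 for Input replicate 2.

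**Figure D1:**
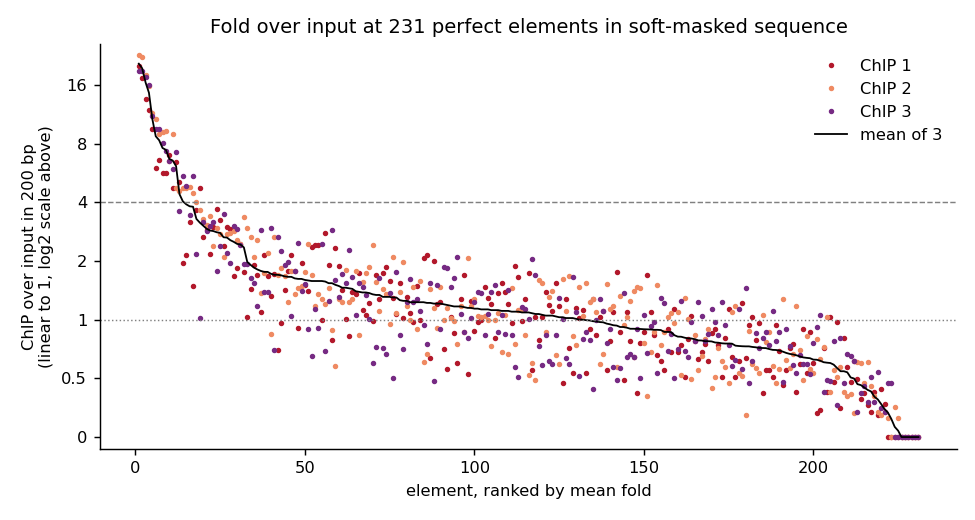
Fold of each ChIP library over the mean input at the 231 elements, ranked by mean fold. Points are the 3 ChIP libraries, the line is their mean, and the dashed and dotted lines stand at 4-fold and 1-fold; the y axis is linear up to 1 and logarithmic above. The mean fold fell from 20.6 at the first element to 0, with a median of 1.09, so most elements lay near 1.

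Over all 231 elements the typical fold was near 1. Raising low inputs to their genome mean lowers this fold, so 1 is not its background. In the windows with more than 50% of their bases soft-masked the median of the mean fold was 0.76. The median fold over all 231 was 1.03, 1.08 and 0.978 in ChIP replicates 1, 2 and 3, and the median of the mean fold was 1.09, with quartiles of 0.798 and 1.52. All 3 ChIP libraries were above 1-fold at 64 elements and all 3 below it at 50. Every ChIP library exceeded both inputs at 58 elements (25.1%), the 16 over 4-fold included, against 7.45% of the mostly soft-masked windows. The reverse, every ChIP library below both inputs, was seen at 10 elements (4.33%) against 9.30% of those windows. At 24 elements (10.4%) the fold was over 2 in all 3 ChIP libraries, against 0.0215% of the soft-masked windows, and 10 of these were not over 4-fold in at least 2.

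ChIP and input were then compared with limma on log2(signal + 0.5) over one table of 2451719 features, with Benjamini-Hochberg adjustment over the table. Of the 231 elements, 220 passed the minimum mean signal of 0.1 and were tested. Adjusted p-values were under 0.05 for 8 of them, all higher in ChIP, while 0.0252% of all features and 0.00884% of the mostly soft-masked windows were called higher. No element was called lower by limma, where 0.00877% of all features and 0.0152% of the soft-masked windows were. At an unadjusted p under 0.05, 38 elements (17.3% of those tested) were higher and 2 lower, against 1.44% higher and 3.12% lower among all features. The 8 called elements all exceeded 4-fold in all 3 ChIP libraries, but both criteria use the same signal values and are not separate evidence. Their number was 4 when ChIP replicate 2, Input replicate 1 or Input replicate 2 was left out, and 5 with the track batch described further on as a term. It was 1 with a pseudocount of 1, and 0 by limma without a filter on low signal, where 40 were higher at an unadjusted p under 0.05.

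The element with the highest signal lay between genes, 140642 bp downstream of the nearest coding start, that of Cog6, a subunit of a Golgi tethering complex (chr3:52876568-52876580, no group, both outer bases). Mean signal in its 200 bp was 11.6, 13.1 and 10.9 in ChIP replicates 1, 2 and 3, and 0.546 and 0.607 in the inputs. The lowest ChIP value thus stood far above both inputs. The mean fold was 20.6 ± 1.97 (SD, n = 3), with a limma log2 difference of 3.52 (SE 0.39, adjusted p = 1.52e-06). The highest 25-bp bin of its mean ChIP signal was centred 112.5 bp from the element, the largest such distance among the 16 elements; at the other 15 the highest bin lay within 100 bp.

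The next element belonged to group A and lay in intron 6 of 9 of Leo1, a subunit of the Paf1 complex that travels with RNA polymerase (chr9:75455245-75455257). Its signal was 8.94, 11.5 and 9.69 in the ChIP libraries and 0.583 and 0.45 in the inputs. This gave 19.5 ± 2.57-fold (SD, n = 3; log2 difference 3.37, SE 0.41, limma adjusted p = 1.18e-05), with neither outer base present. The 25 central bases of this element occurred in 2 places in the genome.

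Group B supplied the next elements, a pair with both outer bases that lay within 10 kb of a coding start. One was found in intron 15 of 18 of Map4, which encodes a microtubule-associated protein, 4309 bp upstream of a coding start of the same gene (chr9:110073734-110073746). Its signal was 8.08, 10.8 and 10.5 against 0.742 and 0.45 in the inputs, a fold of 16.5 ± 2.53 (SD, n = 3; limma adjusted p = 2.76e-05). The other lay 6674 bp upstream of the start of Rnf219, a RING-finger gene (chr14:104529313-104529325). There the signal was 5.18, 6.91 and 7 against 0.53 and 0.34, or 14.6 ± 2.36-fold (SD, n = 3; limma adjusted p = 0.000774). In both, ChIP and input values were far from overlapping.

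An element of no group stood in intron 1 of 2 of Chst11, which encodes a chondroitin sulfotransferase (chr10:83011037-83011049, 1 outer base). Signal there was 4.43, 5.36 and 5.2 in the ChIP libraries against 0.524 and 0.41 in the inputs, or 10.7 ± 1.07-fold (SD, n = 3; limma adjusted p = 0.00597). Another lay in intron 8 of 10 of Hacd3, an enzyme of very long chain fatty acid synthesis (chr9:64991813-64991825, both outer bases). Its signal was 4.21, 6.94 and 5.47 against 0.95 and 0.54, or 7.44 ± 1.83-fold (SD, n = 3; limma adjusted p = 0.0282). Of the 16 elements over 4-fold, only the one near Cldn23 had a higher signal in Input replicate 1, 0.978.

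The remaining called elements were both of group A. The one 78468 bp upstream of Ubash3b, a phosphatase of immune receptor signalling (chr9:41240150-41240162), had a signal of 2.6, 4.66 and 4.11 against 0.477 and 0.39, or 8.74 ± 2.46-fold (SD, n = 3; limma adjusted p = 0.0371). The one 13182 bp downstream of the start of Arid3b, a DNA-binding protein (chr9:57783033-57783045), had 2.54, 3.43 and 3.64 against 0.358 and 0.41, or 8.34 ± 1.52-fold (SD, n = 3; limma adjusted p = 0.0421). It lay in intron 1 of 3 of the gene model Gm17231. ChIP replicate 1 was the lowest of the ChIP libraries at both. The adjusted p-values of Hacd3, Ubash3b and Arid3b lay nearest the threshold, and among 15 alternative fits Hacd3 passed in 7, Ubash3b in 8 and Arid3b in 7.

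**Figure D2:**
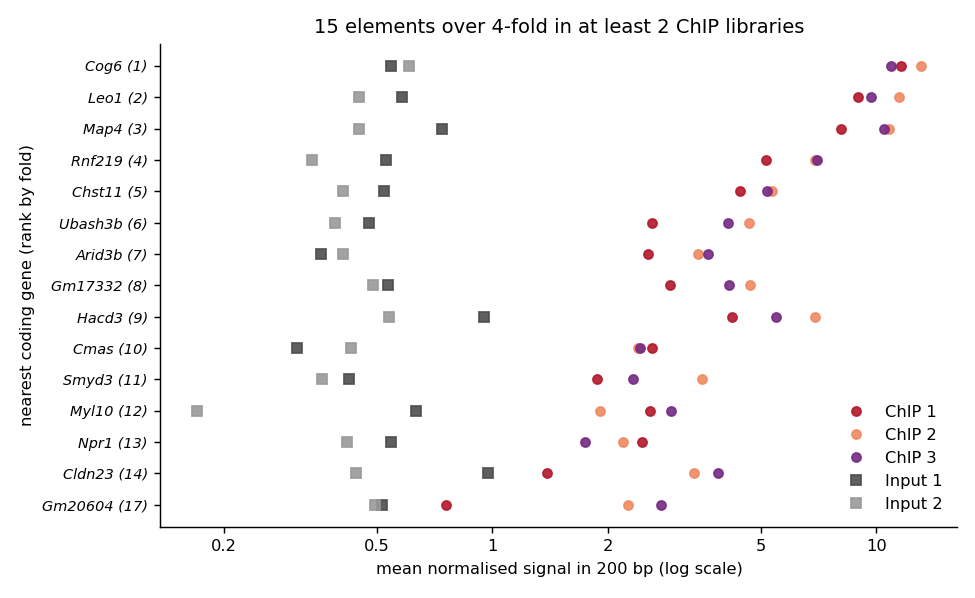
Mean normalised signal in 200 bp, on a logarithmic axis, at 15 of the 16 elements over 4-fold in at least 2 ChIP libraries, named by nearest coding gene and rank by fold. Circles are ChIP libraries and squares inputs; at each of the 15 elements all circles lie to the right of both squares.

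Another 4 elements were over 4-fold in all 3 ChIP libraries without passing the adjusted threshold. They lay nearest Gm17332 (group C, 7.61 ± 1.79-fold, limma adjusted p = 0.0587), Cmas, the enzyme that activates sialic acid (group A, 6.69 ± 0.288-fold, limma adjusted p = 0.105), Smyd3, a lysine methyltransferase (group A, 6.56 ± 2.16-fold, limma adjusted p = 0.162), and Myl10, a myosin light chain (no group, 6.14 ± 1.3-fold, limma adjusted p = 0.157; each SD, n = 3). At Cmas the ChIP signal was 2.6, 2.4 and 2.43 against 0.31 and 0.43, the narrowest spread among the 16. At Myl10 the inputs themselves differed, with 0.635 and 0.17, while the ChIP values were 2.58, 1.91 and 2.93. The 25 central bases of the Smyd3 element occurred at 25 places in the genome, the most of any of the 231, although every 75-mer of its 200 bp was single-copy.

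The last 4 exceeded 4-fold in 2 libraries. At the transcript end of Npr1, the receptor for atrial natriuretic peptide, the folds were 5.08, 4.55 and 3.6 (group B). At the other 3, ChIP replicate 1 was the library below the threshold. Near Cldn23, a claudin, the folds were 1.96, 4.73 and 5.45 (no group), and at the end of the gene model Gm47042 they were 1.49, 4.46 and 5.44 (group B). The Cldn23 element lay just above a mean fold of 4, with 4.05, and the Gm47042 element below it, with 3.8. The 4-fold limit was taken from the methods of the study.

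In the mean over all 231 elements, ChIP signal within 100 bp of the palindrome was 1.99, 2.29 and 2.15 times the genome mean in ChIP replicates 1, 2 and 3, and 1.07 and 0.986 times in the inputs. Beyond 1500 bp the ChIP libraries were at 0.937, 0.963 and 0.994 times the genome mean. The highest 25-bp bin was next to the palindrome in each ChIP library, and 937.5 and 1987.5 bp away in the inputs. When the 16 elements over 4-fold were set aside, the other 215 still averaged 1.33, 1.38 and 1.32 times the genome mean in the centre, against 0.921, 0.938 and 0.974 beyond 1500 bp. In these 215 the inputs were at 1.04 and 0.974 in the centre. The median fold over the 215 was 0.99, 1.03 and 0.923 in the single ChIP libraries. Of the 215, 10 were over 2-fold in all 3, so the mean profile can stand above that of a typical element. The median limma log2 difference was 0.10 over the 204 tested among the 215, against -0.0003 in the mostly soft-masked windows.

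**Figure D3:**
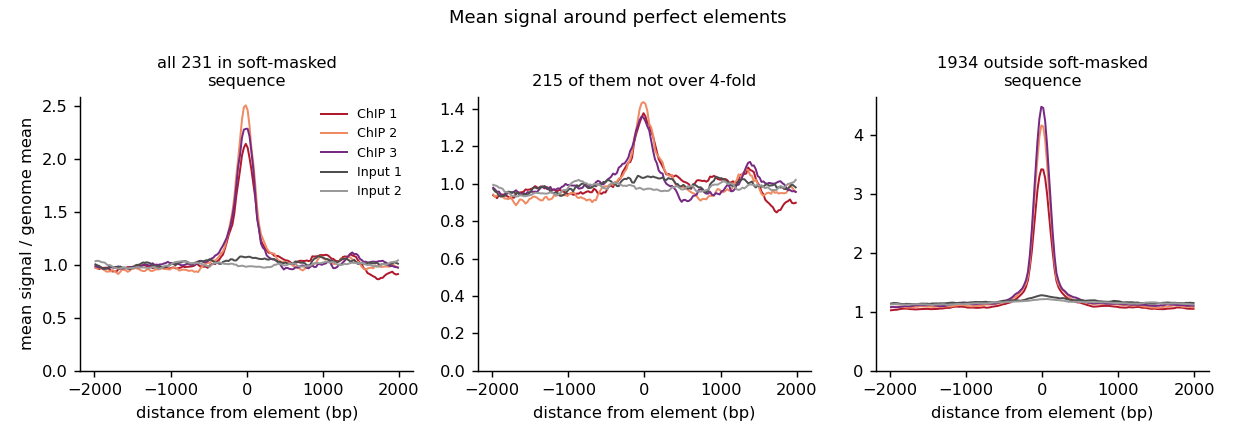
Mean signal over the genome mean by distance from the palindrome in bp, for all 231 elements in soft-masked sequence, the 215 of them not over 4-fold in at least 2 ChIP libraries, and the 1934 outside soft-masked sequence. Lines are libraries, and each panel has its own y axis starting at 0. All 3 ChIP lines rise at the centre in each panel while the input means within 100 bp of the centre lie between 0.974 and 1.27.

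Elements outside soft-masked sequence gave the setting. Of those 1934, 261 (13.5%) were over 4-fold in at least 2 ChIP libraries, with 11.6%, 14.5% and 15.6% in the single ChIP libraries. The share in soft-masked sequence was lower in each ChIP library. On the log2(signal + 0.5) scale, the median over elements tested, ChIP minus input, was 0.09 in soft-masked sequence and 0.14 outside. The median of the limma log2 differences was 0.11 in soft-masked sequence, 0.15 outside and -0.01 over all features. The libraries' differences between both medians were -0.06, -0.07 and -0.18 in ChIP and -0.05 and -0.07 in the inputs, with ChIP replicate 3 the lowest. The exact permutation test over libraries was one-sided for a higher value in soft-masked sequence (p = 0.9), so it does not test a lower one, and the smallest p that 3 against 2 libraries allow is 0.1. Among 294 perfect elements over 4-fold in at least 2 ChIP libraries, 5.44% lay wholly in soft-masked sequence.

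The median rise over input held within track batches. The track names of ChIP replicate 1 and Input replicate 1 lack a prefix that the other 3 carry, and this was taken as a possible batch of track making. Within the first pair the median over the 220 elements tested was 0.09 higher in ChIP, and within the batch of the remaining 3 libraries it was 0.11 higher, against 0.09 over all libraries (exact one-sided permutation test over the 5 libraries, p = 0.1). Counted against the input of their own batch, ChIP replicate 1 had 14 elements over 4-fold, replicate 2 had 18 and replicate 3 had 17.

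The spacing of the arms was examined next. In soft-masked sequence the same arms occurred as palindromes with spacers of 0 to 8 bases other than 3 at 2596 positions, and 10 of these (0.385%) were over 4-fold in at least 2 ChIP libraries. None of the 10 lay within 200 bp of a perfect element. By spacer, 0.626% of 1277 palindromes without a spacer and 0.245% of 817 with a spacer of 2 bases passed, and none of 44, 79, 80, 129, 105 and 65 with spacers of 1, 4, 5, 6, 7 and 8 bases did. At a spacer of 3 bases the share was 6.93%. Arms in direct repeat with 3 bases between them gave 0 of 179, and in everted repeat 1 of 391 (0.256%). Median folds were 0.93, 0.894 and 0.845 at spacers of 0, 2 and 4 bases, against 1.09 at 3.

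**Figure D4:**
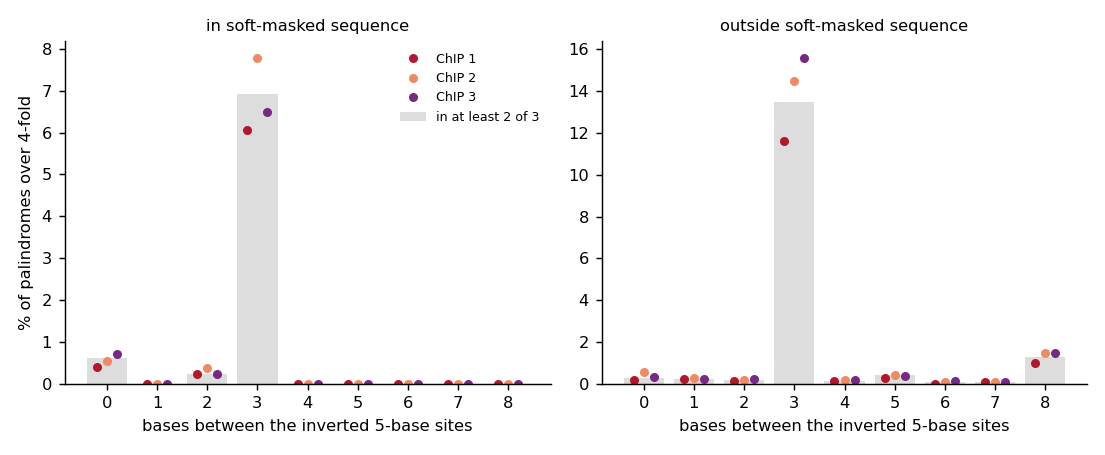
Share of palindromes over 4-fold by the number of bases between the inverted arms, in soft-masked sequence and outside it. Bars give the share in at least 2 of 3 ChIP libraries and points each ChIP library; the panels have different y axes, both starting at 0. The bar at 3 bases stands at 6.93% and 13.5%, and the highest other bar at 0.626% and 1.27%.

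The outer bases of the extended element divided the 231 elements into 124 with neither, 64 with 1 and 43 with both. With both outer bases, 6 (14%) were over 4-fold in at least 2 ChIP libraries, with 1 it was 4 (6.25%) and with neither 6 (4.84%). The median signal with both outer bases was 0.73, 0.582 and 0.64 in ChIP replicates 1, 2 and 3 and 0.475 and 0.362 in the inputs. With neither it was 0.393, 0.42 and 0.391, and 0.383 and 0.35 in the inputs. The ChIP medians exceeded both inputs in each set, by more with both outer bases.

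On the log2(signal + 0.5) scale the difference between both sets was 0.43, 0.22 and 0.35 in the ChIP libraries and 0.13 and 0.00 in the inputs, an excess of 0.26 in ChIP (exact one-sided permutation test over libraries, p = 0.1, the smallest possible). It was 0.30 within the first track batch and 0.28 within the second. The median limma log2 difference was 0.28 with both outer bases and 0.10 with neither. Outside soft-masked sequence the shares over 4-fold were 7.1%, 14.6% and 26.3% with 0, 1 and 2 outer bases. The outer bases went with the sequence groups: 82 of 88 elements of group A had neither, and 28 of 37 of group B had both. Within group B the median fold was 1.45 for the 28 with both and 1.06 for the 9 with 1, but the shares over 4-fold were 3 of 28 (10.7%) and 1 of 9 (11.1%). Within group A they were 6 of 82 (7.32%) with neither and 0 of 6 with 1.

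Group A supplied the most elements and 6 of the 16 over 4-fold. Its share over 4-fold was 6.82%, and its median fold 1.12, with a range from 0.281 to 19.5. Median signal was 0.463, 0.508 and 0.406 in the ChIP libraries and 0.405 and 0.39 in the inputs, so ChIP replicate 3 barely exceeded Input replicate 1. Elements alike in sequence to group A also lay outside soft-masked sequence, and 6 of those 62 (9.68%) were over 4-fold, with a median fold of 1.15. The difference between both parts of group A, taken as medians per library, was -0.11, 0.02 and -0.11 in ChIP and -0.01 and -0.01 in the inputs.

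The elements of group A over 4-fold and the others overlapped in their match to the most frequent bases. The match was taken position by position without gaps, so bases beyond an insertion or deletion can count as different. Those over 4-fold shared from 51.7% to 91.7% of 60 flanking bases, with a median of 89.2%. The 80 others that could be compared shared from 50% to 98.3%, with a median of 84.2%. The 51.7% was that of the Ubash3b element, whose flank shown above carries an insertion. Its share therefore understates how much of the sequence it kept. The Leo1 element, which shared 90% of the 60 bases, reached 19.5-fold. The Chkb element, 6212 bp upstream of a choline kinase gene, shared 73.3% and had a signal of 0.313, 0.1 and 0.312 in the ChIP libraries against 0.48 and 0.489 in the inputs (0.499 ± 0.254-fold, SD, n = 3). That was one of the 3 lowest log2 differences, -0.42 (SE 0.18), among elements with at least 90% single-copy 75-mers and both inputs at or over their genome mean; the other 2, near Trim24 and Prf1, were also of group A, with -0.44 and -0.32. None of the 3 passed the limma test.

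Group B had 4 elements over 4-fold among 37 (10.8%) and a median fold of 1.38. Median signal was 0.57, 0.582 and 0.65 in the ChIP libraries against 0.475 and 0.36 in the inputs, so the groups of libraries did not overlap. Every ChIP library exceeded both inputs at 15 of the 37 elements (40.5%) and none of the 37 had the reverse. The lowest fold of group B was 0.679 ± 0.222 (SD, n = 3), in intron 2 of 9 of Sept6, a septin gene, where the ChIP signal was 0.34, 0.18 and 0.23 and the inputs 0.328 and 0.2. The input at Sept6 was raised to its genome mean, which lowers that fold. The 19 elements of this group outside soft-masked sequence had a median fold of 1.81 with 2 over 4-fold. The medians per library in soft-masked sequence minus those outside were -0.18, -0.33 and -0.20 in ChIP and -0.07 and -0.08 in the inputs, each ChIP value being the lower.

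Groups C, D and E had lower median folds than groups A and B. With 20, 12 and 11 elements, their counts over 4-fold are too small to be set apart from the 6.93% over all 231. In group C, 1 of 20 elements (5%) was over 4-fold, the one near Gm17332, where the signal was 2.9, 4.7 and 4.13 against 0.537 and 0.49. The median fold of group C was 0.82, and the median limma log2 difference was 0.04 over the 16 tested. Of the 18 elements of group C outside soft-masked sequence, 0 were over 4-fold. The lowest of that group had no signal in any of the 5 libraries and no single-copy 75-mer. Group D had a median fold of 0.292 and no element over 4-fold. Its median signal was 0.112, 0.113 and 0.124 in the ChIP libraries against 0.085 and 0.096 in the inputs, and the median log2 difference was 0.09 over the 7 elements tested, so the low fold comes from raising the inputs to their genome mean. It lay in long soft-masked stretches, with a median of 5651 bp, and only 2 of its 12 elements had at least 90% single-copy 75-mers. Its highest element, 1232540 bp from the start of the protocadherin gene Pcdh7, had a signal of 0.33, 0.295 and 0.39 against 0.173 and 0.26 (0.919 ± 0.13-fold, SD, n = 3), the fold being under 1 since the input value was raised to its genome mean. Group E, all 11 elements of which were at or over 90% single-copy, ranged from 0.672-fold in an intron of Csmd2 to 1.66-fold in intron 15 of 24 of Psmd1, a proteasome subunit gene (its nearest coding start being that of Htr2b), with a median of 0.953.

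**Figure D5:**
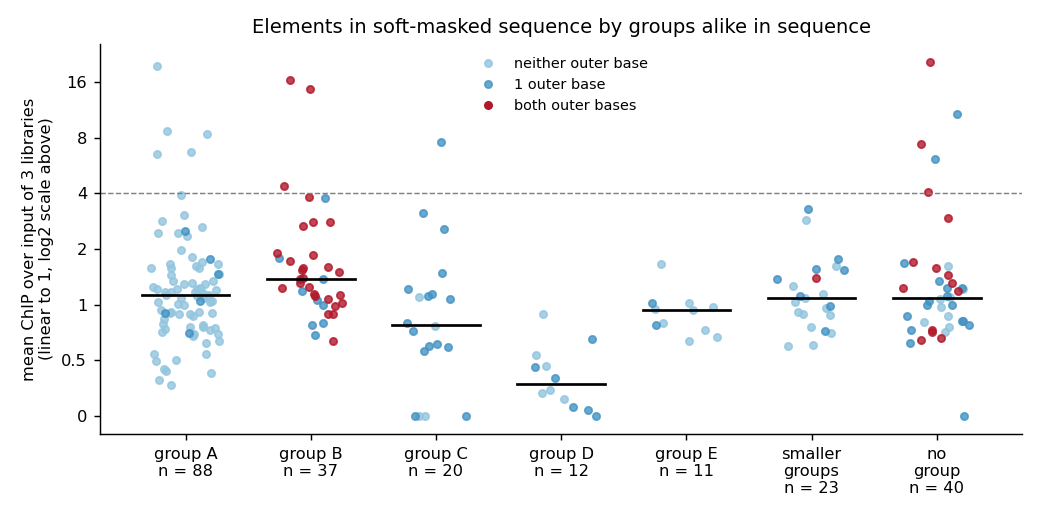
Mean fold of the 3 ChIP libraries at each element, by group alike in sequence and coloured by the number of outer bases present. Black lines are medians, the dashed line stands at 4-fold, and the y axis is linear up to 1 and logarithmic above. Group medians run from 0.292 in group D to 1.38 in group B, and the elements over 4-fold lie in groups A, B and C and among those of no group.

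How far reads could be placed differed among the elements. Because the authors used uniquely mapped reads, the share of 75-mers in the 200 bp that occur once in the genome was counted. At 209 of 231 elements (90.5%) it was at least 90%, and all 16 elements over 4-fold were among them, the lowest at 92.1%. The 22 elements below 90% had a median input signal of 0.095, against 0.4 for the 209. Of the 11 below 50%, 7 had both inputs at 0. Signal at these elements is limited by the reads kept, and a low fold there cannot be told apart from reads that were not placed. Over the 209 elements the share over 4-fold was 7.66%. The fold is also low at the 22 by construction, because inputs under the genome mean were raised to it. The median limma log2 difference was 0.11 both for the 12 tested among the 22 and for those tested among the 209.

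Most soft-masked stretches around the elements were short. The median stretch was 64 bp, with quartiles of 41.5 and 126 bp and a range from 19 to 7136 bp, so that at 75 elements less than 50% of the 200 bp was soft-masked and at 19 all of it was. Of the 36 elements in stretches of at least 200 bp, 1 (2.78%) was over 4-fold, and of the 195 in shorter stretches 15 (7.69%). The median single-copy share was 96% and 100% in these sets, so length of the stretch and placement of reads moved together, and their parts in the result were not tested.

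By annotation, 143 elements lay between genes, 66 in introns, 13 at promoters (from 1 kb upstream to 100 bp downstream of a transcript start), 5 at transcript ends, 3 in other exons and 1 in a UTR. Among those between genes 7 (4.9%) were over 4-fold, among those in introns 7 (10.6%), at promoters 0 and at transcript ends 2. Outside soft-masked sequence 20 of 102 promoter elements (19.6%) were. The promoter elements in soft-masked sequence were mostly not those of coding genes: 7 of the 13 lay at Gtpbp4 pseudogenes on chromosome 7, all of group A, with mean folds from 0.281 to 0.95, and only 2 of these 7 were at or over 90% single-copy. The lowest of group A was among them, at Gtpbp4-ps4, with a signal of 0.15, 0.07 and 0.09 against 0.08 and 0.05. Its input was raised to the genome mean, so the low fold there does not mean ChIP signal below input.

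None of the elements had its nearest coding start, or a coding start within 50 kb, at a gene of the lists looked up here. No share over other perfect elements or genome windows is given beside this, so it cannot be read as fewer than elsewhere. These were 20 genes of the estrogen response (among them Greb1, Pgr and Cxcl12), 9 steroid and NR5A receptor genes, 17 of steroidogenesis and cholesterol (Star, Cyp11a1, Cyp19a1), 26 of granulosa cells and ovulation (Fshr, Lhcgr, Runx2) and 9 of the oocyte. Over all 231 elements the median distance to a coding start was 40320.0 bp, against 36188 bp for elements outside soft-masked sequence. Of the 16 elements over 4-fold, 5 lay on chromosome 9, which held 15 of the 231.

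Other motifs were searched on both strands in the 200 bp with the 13 central bases left out, so that none overlaps the palindrome. The AP-1 motif (TGACTCA or TGAGTCA) was present at 56 elements (24.2%), 50 of them in group A, whose most frequent bases include it, against 4.86% of elements outside soft-masked sequence and 2.81% of genome windows. Within group A the median fold was 1.13 for the 50 elements with it and 1.09 for the 38 without. The shares over 4-fold in at least 2 ChIP libraries went the other way, 3 of 50 (6%) with it and 3 of 38 (7.89%) without. The GATA motif (AGATAA or TGATAA) was at 43 elements (18.6%; genome windows 22.4%), and FOXO (TGTTTAC) at 4 (1.73%; genome windows 2.69%). NR5A (TCAAGGTCA or CCAAGGTCA), the motif of the orphan receptors that act in steroidogenic cells, was at none outside the palindrome, and at 0.613% of genome windows. NR5A sites that share an arm with the palindrome were not counted by this search, such as TCAAGGTCA at the Rnf219 element shown above. A further arm (GGTCA) stood at 43 elements (18.6%; genome windows 24.6%), with 5 of them over 4-fold, among which was the Cog6 element.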

How the data were processed

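The authors deposited one genome track per library. According to the methods of the study and the submitters' processing notes, reads were aligned with STAR to GRCm38 (mm10) without spliced alignment, uniquely mapped reads were kept, and HOMER was used; versions, duplicate handling and the fragment length used to make the tracks are not given in the sources used here. The deposited values are signal (coverage), normalised by the authors to a common library total, averaged over segments with median lengths from 269 to 519 bp and rounded to 2 decimals. The tracks do not hold depth, so no counting interval was computed.

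Elements were found on both strands in the GRCm38.p6 sequence with its soft-masking, whose method is not given in the sources used here. Mean signal was taken in the central 200 bp. Features (a window of 200 bp every 1 kb, all perfect elements, palindromes with spacers of 0 to 8 bases, direct and everted repeats) with a mean signal of at least 0.1 were tested together with limma 3.58.1 (R 4.3.3; lmFit, eBayes with trend) on log2(signal + 0.5), a scale that understates changes of low signal, and the script was tested on simulated data. Medians were compared by exact permutation over libraries. Sequence groups used blastn 2.17.0, single linkage, at least 60 bp and 75% identity. Genes are GENCODE vM21 (139486 transcripts). Libraries were grouped by sample titles; replicates are separate ovary pools per the methods.

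Elements named are the 15 highest of those called and over 4-fold in all 3 ChIP libraries (8 qualified), called elements within 10 kb of a coding start, elements near listed genes, the 3 lowest single-copy ones, the highest and lowest of each group of at least 10, and those around 4-fold; the other elements over 4-fold, those at Gtpbp4 pseudogenes and the sequences shown were added after their values were seen. The elements and gene lists were chosen with earlier results of these data known. Alternatives changed the pseudocount, filter, scaling, window, masking rule, copy number, GC content, batch, block, libraries and fold limits. One element over 4-fold in 2 libraries is counted but not reported here. The 2 knockout ChIP samples were not analysed here.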

Additional observations from a re-analysis of the deposited data

How the results depend on the processing

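Under the alternatives run, neither the shares nor the medians changed direction, none of the 8 called elements changed sign, and no element was called lower. The count of elements called higher by limma, 8, was 12 with a pseudocount of 0.25 and 1 with a pseudocount of 1, 0 without a filter on low signal (40 at an unadjusted limma p under 0.05), 10 with a minimum of 0.3, 5 in 100 bp and 11 in 400 bp, 5 with the track batch as a term, 17 of 411 when 1 soft-masked base was enough, and between 4 and 9 with one library left out. The cause of these changes was not tested. With the replicate block it was 12, and the median log2 fold went from 0.11 to 0.13. Libraries of the same replicate number shared no deviation from their group means (correlation 0.016 for number 1 and -0.006 for number 2). With 2 inputs, whose deviations mirror each other, these are not separate checks and cannot tell whether libraries came from the same pool. The share over 4-fold, 6.93%, was 4.76% in 400 bp, 13.4% at 2-fold and 3.46% at 8-fold, and from 5.19% to 7.36% with one library left out. With a ChIP library left out, both remaining ChIP libraries had to exceed 4-fold, so the share could not rise. The share of single-copy elements was 78.4% with 50-mers and 84% when every 75-mer had to be single-copy. The median log2 fold stayed between 0.07 and 0.15. The median limma log2 difference with both outer bases minus that with neither stayed between 0.12 and 0.30, against 0.18 in the main fit. That is another measure than the excess of medians per library given above. Limits are 3 ChIP libraries and 2 inputs, depth that cannot be read from the tracks, inputs stored at unequal resolution, and unplaced reads at copies that are alike.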
